A study of Ambystoma mexicanum with 12 samples.

Results

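Distal forelimb blastemas of the axolotl (Ambystoma mexicanum) that had grown in 0.1 uM talarozole were compared with distal blastemas grown in the solvent alone. The comparison rests on 6 of the 12 RNA libraries analysed, 3 at 0.1 uM talarozole (TAL) and 3 with dimethyl sulfoxide (DMSO), chosen by their labels. It covers the 56805 gene identifiers that begin with AMEX60DD but not with AMEX60DDU, out of 99081 in the table. All animals were white (d/d), aged 3 months and 5 cm long, and all blastemas of both groups grew from an amputation through the middle of the carpus and were taken 14 days later. Each library was made from a pool of 3 blastemas. The animals of both groups were moved into dosed water at day 4, the dose was renewed on alternate days over 7 days, and plain housing water followed until collection. The tissue was therefore sampled after the treatment had ended. The study addressed the role of excess endogenous retinoic acid in patterning the regrowing limb from shoulder to hand, and the comparison here asks what the lower dose did at the wrist and how large a change could still have gone unseen.

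After a salamander limb is cut, proliferating progenitor cells gather under the wound skin as a bud, the blastema, from which the missing part regrows. Retinoic acid is a small signalling molecule made from vitamin A. It acts through nuclear receptors that bind DNA, and enzymes of the CYP26 family break it down. In salamanders, added retinoic acid is known to make a wrist blastema regrow more proximal parts of the arm. Talarozole blocks CYP26 enzymes, so endogenous retinoic acid is broken down more slowly.

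The deposited table pairs no identifier with a gene name, and 0 identifiers matched the RefSeq gene list used here. Genes are therefore given by identifier, no role is stated for any of them, no sequence is shown, and neither the retinoic acid genes nor the markers of blastema cell types could be looked up. Whether the labelled tissue carries its defining markers was not tested. Each library is a bulk pool, so fewer cells of a type and less RNA per cell cannot be told apart. Nothing in the labels says whether the pools of a group came from separate experiments. In the main fit, p-values measure the spread between pools of the same group, over all 12 libraries.

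The 6 libraries had similar depth. Total estimated counts ranged from 8652567 to 10940100 at 0.1 uM TAL and from 8926919 to 11122731 with DMSO (exact two-sided permutation p 0.7, where 0.1 is the smallest that 3 against 3 libraries allow). Between 26545 and 27268 AMEX60DD genes had at least 1 count at 0.1 uM, and between 26899 and 27522 with DMSO (exact two-sided permutation p 0.2). The identifiers beginning AMEX60DDU took 11.5 to 12.9% of counts at 0.1 uM and 10.01 to 15.9% with DMSO, with the highest share in DMSO replicate 1.

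Distances between pools of the same group overlapped those between pools of different groups. Over the 21537 AMEX60DD genes that passed the filter on low counts, the median absolute difference in log2(CPM + 1), where CPM is the count scaled in the usual way to library size after TMM normalisation, had a median of 0.352 over the 6 pairs within a group (range 0.203 to 0.435). Over the 9 pairs between groups it had a median of 0.315 (range 0.266 to 0.442). The widest pairs of both kinds held DMSO replicate 1. Without that library the pairs within a group ran from 0.203 to 0.354 and those between groups from 0.266 to 0.328. The closest pair was 0.1 uM replicates 1 and 2. In contrast, 0.1 uM replicate 3 was nearer to each of DMSO replicates 1 to 3 (0.3045, 0.326 and 0.266) than to either pool of its own group (0.354 and 0.349). Estimated counts of same-group pairs were also compared over all identifiers with enough counts, AMEX60DDU included. They differed by more than sampling of whole reads allows (chi-square divided by its degrees of freedom 13.9 or more in all 6 pairs). The counts are estimates and not whole reads, so this value is a rough guide. Each library was kept as its own sample.

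**Figure D1:**
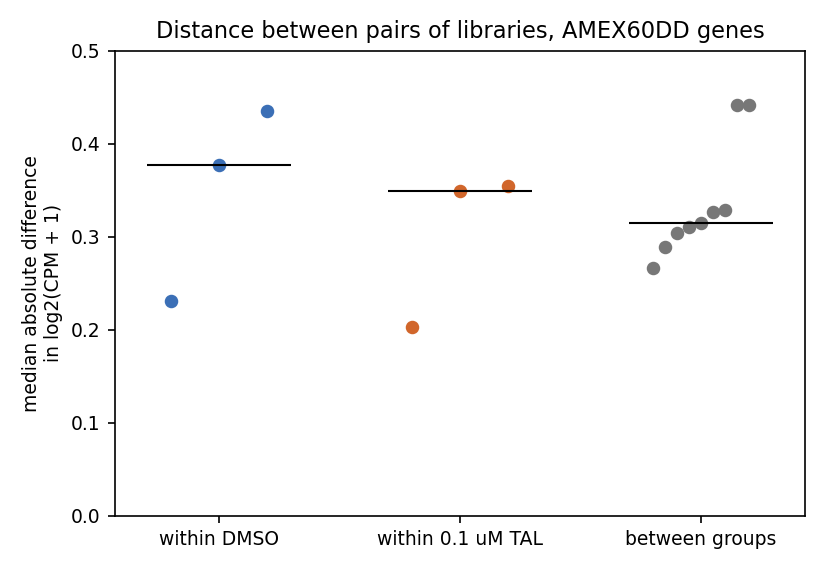
Each point is 1 pair of libraries, placed by the median absolute difference in log2(CPM + 1) over 21537 AMEX60DD genes (vertical axis), for pairs within the DMSO group, within the 0.1 uM TAL group and between the groups; bars are medians. The pairs between groups (0.266 to 0.442) lie in the range of the pairs within groups (0.203 to 0.435) apart from a small excess at the top.

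DMSO replicate 1 stood apart from the other libraries. Of the 868 AMEX60DD genes with a mean over 100 CPM, it held the lowest value of the 6 libraries for 75.6%. The size of this offset depended on the scaling: with DESeq2 size factors it was lowest for 68.1% of the same genes, and with scaling on AMEX60DD identifiers alone for 58.6%. The opposite held for the most abundant genes. For each of the 6 genes with the highest mean level, DMSO replicate 1 was the highest and DMSO replicate 2 the lowest library, 4.08 to 6.41 times apart. The most abundant of them, AMEX60DD016881, was at 61365, 14062 and 34303 CPM in DMSO replicates 1 to 3 and at 29031, 40260 and 59963 CPM in 0.1 uM replicates 1 to 3. The groups overlapped fully, and the log2 fold change of 0.24 had a 95% interval from -1.71 to 2.19, so neither a fall to 0.305 of the vehicle level nor a rise to 4.56 times that level lay outside it. Results below that change without 1 of these libraries are given with and without it.

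No AMEX60DD gene passed the test at 0.1 uM. edgeR's quasi-likelihood test called 0 of 21537 AMEX60DD genes at an adjusted p under 0.05, as it called 0 of all 41884 identifiers tested (0%), and the lowest adjusted p was 0.304. At an unadjusted p under 0.05 there were 732 AMEX60DD genes, or 3.4%, against 3.23% of all identifiers tested and 1077 genes expected at that threshold with no effect. Of the 732, 296 were higher and 436 lower at 0.1 uM. This split rested on the vehicle pools, since it was 230 higher and 722 lower without DMSO replicate 1 and 617 higher and 226 lower without DMSO replicate 2. It was 665 higher and 683 lower when the AMEX60DD identifiers were scaled and fitted alone. Their share was then 6.27%, and it was 6.03% with at least 10 counts in every library and 13.6% with limma voom. The DESeq2 Wald test gave 5.43%. AMEX60DD identifiers alone with only the 6 libraries, a setting chosen after seeing the data, gave 6.88%. These shares were above that expected with no effect. Genes measured in the same libraries do not vary independently, so a share above that expected is not read here as an effect. DESeq2 size factors, no low-count filter, the replicate block and fits of the 6 or 9 libraries gave 2.26 to 4.75%. The number at an unadjusted p under 0.05 was 381 (1.62% of 23448 genes) without 0.1 uM replicate 2. It was 1587 (6.84% of 23193 genes, also above that expected) without 0.1 uM replicate 3. Other tools gave more calls on the same libraries and the same 21537 AMEX60DD genes. With sample quality weights, limma voom called 5 (3 higher, 2 lower) and the DESeq2 Wald test 48 (27 higher, 21 lower). DESeq2 gave no adjusted p for 240 genes, which could not be called. The calls of these tools among all identifiers are not given here. Of the 48, 34 had 0 counts in every library of 1 group.

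Point estimates were small for genes with many counts and scattered for genes with few. The median log2 fold change was -0.02, and the middle 50% of the genes lay between -0.33 and 0.24. Estimates went beyond a 4-fold change for 1221 genes (5.67%), 535 higher and 686 lower at 0.1 uM. Of these, 683 had a mean under 1 CPM and 517 a mean of 1 to 10 CPM, while 19 were at 10 to 100 CPM and 2 over 100 CPM. Among the 21537 genes tested, 821 had 0 counts in all libraries of a group. Their estimates depend on the prior count of the fit and are not measured sizes, and they were not taken out of the 1221. Every library at 0.1 uM lay above every DMSO library for 777 AMEX60DD genes (3.61%, against 3.59% of all identifiers tested) and below for 1311 genes (6.09%, against 4.31%). This split depended on the scaling and on single libraries. It was 1434 higher and 1486 lower, of 21504 genes, when AMEX60DD identifiers were fitted alone. Without DMSO replicate 1 it was 1374 and 4214 of 23322 genes, and without DMSO replicate 2 it was 2531 and 1967 of 23104. Without 0.1 uM replicate 3 it was 3537 and 3407 of 23193. Groups of 2 libraries overlap less often by construction, and shares among all identifiers under these settings are not given here. With 3 against 3 libraries and no ties, 0.1 of all orderings separate the groups fully, counting both directions.

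**Figure D2:**
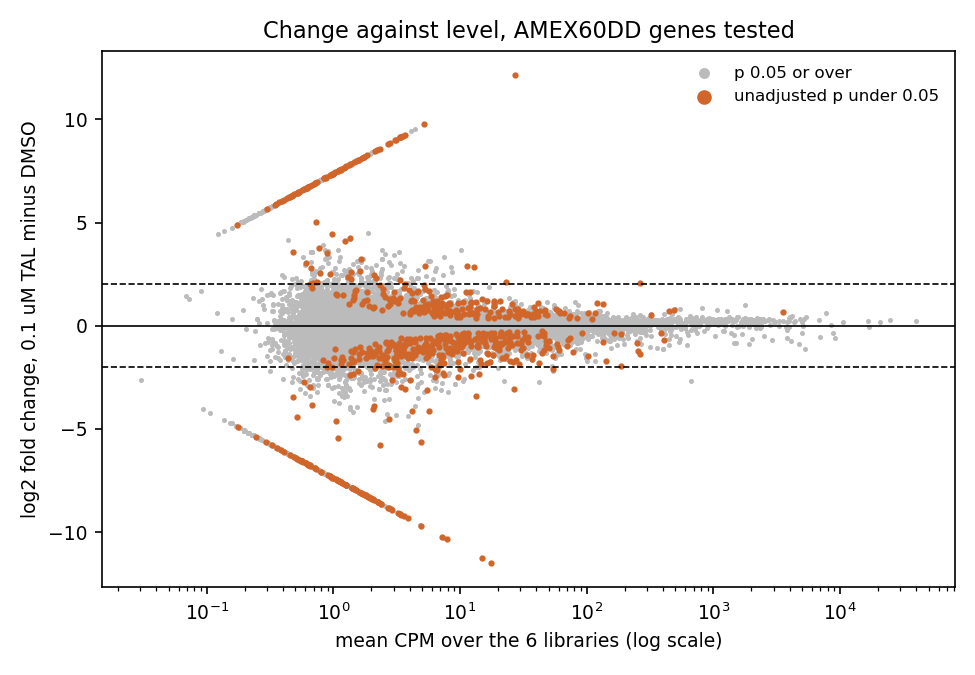
Each point is 1 of 21537 AMEX60DD genes, with its mean CPM over the 6 libraries (horizontal axis, log scale) and its log2 fold change of 0.1 uM TAL against DMSO (vertical axis); orange marks the 732 genes at an unadjusted p under 0.05 and dashed lines a 4-fold change. The cloud narrows as the level rises, and the diagonal arms are genes with 0 counts in all 3 libraries of a group, whose plotted fold change depends on the prior count of the fit and is not a measured size.

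Among genes with at least 1 CPM in a group and no overlap between groups, AMEX60DD009927 had the clearest difference of those with counts in all 6 libraries. It was at 1.18, 5.1 and 3.01 CPM in the DMSO pools and at 21.8, 22.0 and 24.7 CPM in the 0.1 uM pools. The treated pools were all high and close together, and the lowest of them was more than 4 times the highest vehicle pool. The log2 fold change was 2.87 (SE 0.397, 95% interval 1.98 to 3.76), with an unadjusted p of 5.46e-05 and an edgeR adjusted p of 0.313. Its adjusted p was 0.0732 when the AMEX60DD identifiers were fitted alone, 0.017 with limma voom and 5.88e-12 with DESeq2, and over all settings it ran from the last of these to 1. It was at 54.9, 50.8 and 51.4 CPM in the pools at 1 uM TAL and at 14.0, 10.6 and 8.38 CPM in proximal vehicle pools. The gene was picked for its small p, and its 95% interval is not adjusted for that pick. That the interval leaves out 0 is therefore no support for a change.

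On the lower side, AMEX60DD009613 had the smallest p of the genes with counts in all 6 libraries and no overlap, and was chosen after its values were seen. It was at 119.8, 111.4 and 99.2 CPM in the DMSO pools and at 37.4, 42.4 and 55.2 CPM in the 0.1 uM pools. All treated pools were at or below 55.2 CPM, so the groups were far apart, but the log2 fold change of -1.29 (SE 0.27, 95% interval -1.90 to -0.69) had an edgeR adjusted p of 1. DESeq2 gave an adjusted p of 0.00741, and every other setting gave 0.112 or more. It was at 30.3, 19.5 and 18.1 CPM at 1 uM TAL and at 51.8, 69.2 and 36.0 CPM in proximal vehicle pools. Its 95% interval is likewise not adjusted for the choice of the gene by its p.

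The other genes at the top of the list were present in one group and at 0 counts in the other. AMEX60DD025503 had 0 counts in all 3 DMSO distal pools and 3.16, 1.42 and 2.25 CPM in the 0.1 uM pools, from 30, 12 and 22 counts. Its mean of 2.28 CPM at 0.1 uM was 6.44 times a floor of 3 counts per library (edgeR adjusted p 0.304). This ratio allows for no spread between pools and is no lower limit. These counts are salmon's estimates and not whole reads, so the floor is approximate. It was also present in all 3 pools at 1 uM TAL (0.848 to 1.54 CPM) and all 3 proximal vehicle pools (1.34 to 2.19 CPM), so that the DMSO distal pools were the only ones of the 12 with none. AMEX60DD044347 showed the reverse arrangement, with 2.83, 1.3 and 2.46 CPM in the DMSO distal pools and 0 counts in all 3 pools at 0.1 uM. The DMSO distal mean of 2.2 CPM was 6.17 times the floor, with an edgeR adjusted p of 0.313. This gene was present again at 1 uM TAL, at 0.914, 2.08 and 2.23 CPM. AMEX60DD044318 was at 12.6, 4.26 and 3.83 CPM in the DMSO distal pools and at 0 counts in all 3 pools at 0.1 uM. The DMSO distal mean of 6.9 CPM, raised by replicate 1, was 19.4 times the floor, with an edgeR adjusted p of 1. This gene was at 0 counts at 1 uM TAL too, and at 4.08 CPM or more in all 3 proximal vehicle pools.

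Such present-or-absent genes were found in both directions. Of the 56805 AMEX60DD identifiers, 24 had at least 10 counts in each 0.1 uM library and 0 in each DMSO distal library. The opposite arrangement was found for 32. The share among all identifiers is not given here, so these counts are not read as a trait of AMEX60DD genes. Single libraries also lacked genes: between 35 and 95 AMEX60DD genes were at 0 in 1 of the 6 libraries and at 10 or more counts in each of the other 5. Absence from 1 library is a different event from absence in all libraries of a group, so these counts are no background for the 24 and 32. Salmon divides reads that fit several sequences among them, so the levels of genes with near-identical copies are uncertain, and these genes were not checked for such copies.

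**Figure D3:**
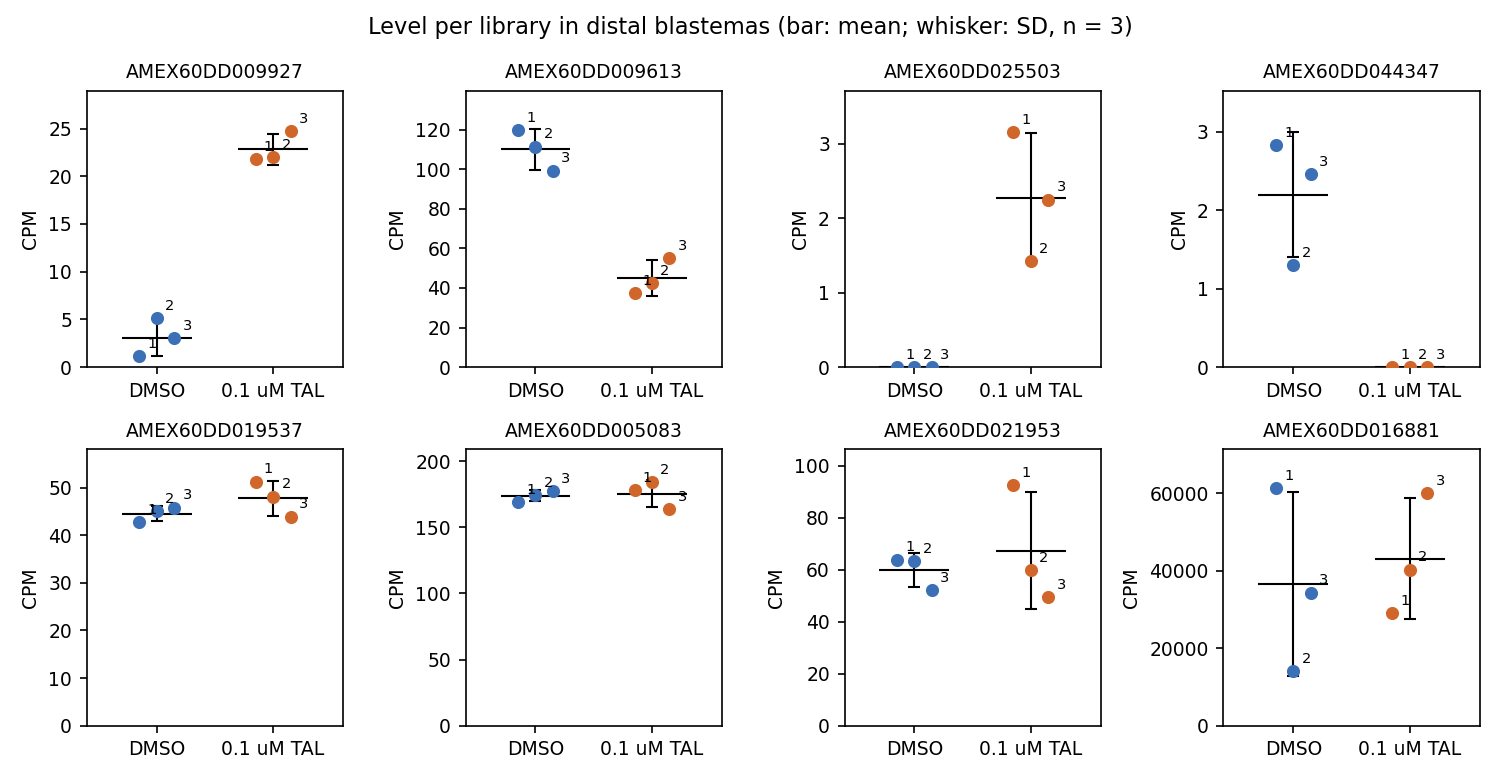
Level in CPM (vertical axes, each from 0) in each of 3 DMSO and 3 0.1 uM TAL pools, numbered by replicate, for 8 genes; bars are means and whiskers SDs (n = 3). The upper row shows genes whose groups do not overlap, with 2 of them at 0 counts in a whole group, and the lower row shows 2 steady genes, 1 gene that fell at the higher dose and the most abundant gene.

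How large a change the 6 pools leave room for was read from the 95% interval of each gene's log2 fold change. The spread behind the intervals was estimated from all 12 libraries. With only the 6 libraries fitted, 77.7% of 18400 genes had an interval within 4-fold, and the median half-width was 0.922. For 8290 of the 21537 AMEX60DD genes tested (38.5%) the whole interval lay within a 2-fold change in either direction, and for 14810 (68.8%) within a 4-fold change. It lay within 8-fold for 78.2% and within 16-fold for 83.3%. The 4-fold share depended on the filter, at 38.1% without one and 96.1% for genes with at least 10 counts in every library. The median half-width was 0.94 on the log2 scale, a factor of 1.92 on either side of the estimate. For 821 genes (3.81%) a group had 0 counts throughout and the interval had no finite end.

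The level of a gene set most of this. Of the 868 genes over 100 CPM, 77.0% had an interval within 2-fold and 93.1% within 4-fold. Of the 5391 genes at 10 to 100 CPM, 73.4% lay within 2-fold and 92.6% within 4-fold. At 1 to 10 CPM, which held 12510 genes, the shares fell to 29.3% and 68.2%. Under 1 CPM, 0 of 2768 genes had an interval within 2-fold and 17.4% had one within 4-fold. More counts did not narrow the intervals above 10 CPM, where the median half-width was 0.50 in both classes. There the highest and lowest of the 3 DMSO pools differed by a median of 1.48 times at 10 to 100 CPM and 1.6 times over 100 CPM, and the 3 pools at 0.1 uM by 1.35 and 1.28 times.

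**Figure D4:**
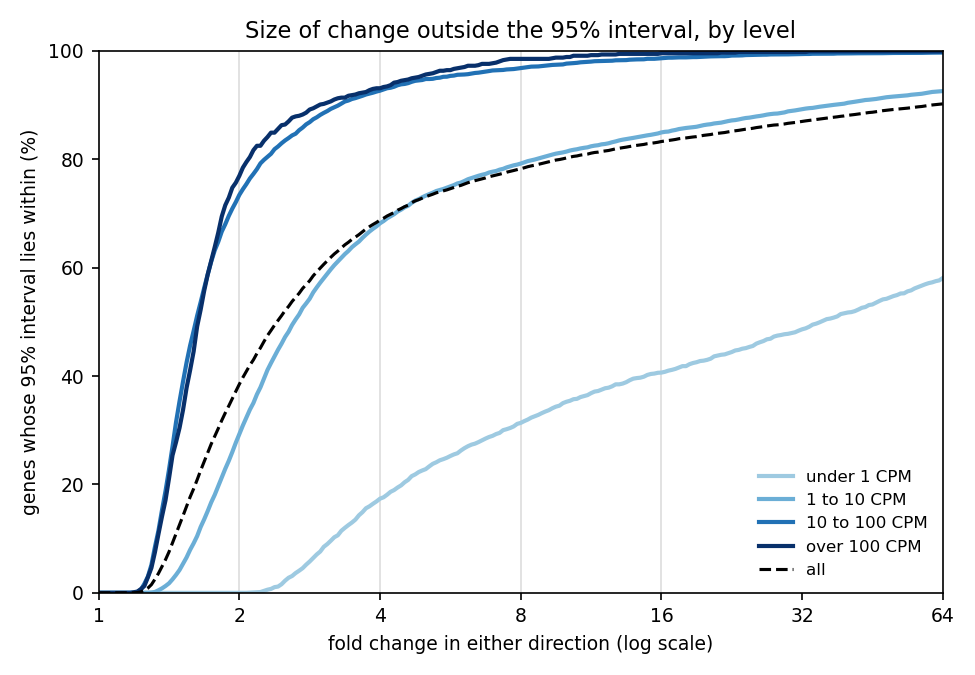
For each size of change in either direction (horizontal axis, log scale), the curves give the percentage of AMEX60DD genes whose 95% interval for 0.1 uM TAL against DMSO lies wholly within it (vertical axis), by mean level over the 6 libraries; the dashed line is all 21537 genes. At 4-fold the curves stand at 93.1% over 100 CPM, 92.6% at 10 to 100 CPM, 68.2% at 1 to 10 CPM and 17.4% under 1 CPM.

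The narrowest interval belonged to AMEX60DD019537. It was at 42.8, 45.1 and 45.8 CPM in the DMSO pools and at 51.3, 48.1 and 43.9 CPM in the 0.1 uM pools, with a log2 fold change of 0.10 (95% interval -0.11 to 0.31). The groups overlapped, and levels below 0.923 or above 1.24 times the vehicle level lay outside its interval. AMEX60DD005083 came next, at 169.3, 174.6 and 177.6 CPM with DMSO and 178.3, 184.1 and 164.0 CPM at 0.1 uM, with an interval from 0.868 to 1.17 times the vehicle level. Both genes were picked for narrow intervals and stand for the best these pools could do.

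A call across the whole table asks for much more than an interval that leaves out 0. Simultaneous 95% intervals over all 41884 identifiers tested lay within a 2-fold change for 0 AMEX60DD genes and within a 4-fold change for 1690 (7.85%). Their half-width is the estimated change that a gene needs to pass a Bonferroni threshold. The Benjamini-Hochberg adjustment behind the calls asks about as much of a gene that passes alone, and less where several pass together. To pass the Bonferroni threshold, the median gene at 10 to 100 CPM would have needed an estimated 5.18-fold change. The median gene over 100 CPM would have needed a 5.16-fold change, and the median gene at 1 to 10 CPM a 30.8-fold change. With the fitted errors, an estimated 4-fold change would have reached this size for 2236 genes (10.4%) and an estimated 2-fold change for 0 genes. A true change of that size can give a smaller estimate, so these are not counts of genes whose change would be found. The median over all AMEX60DD genes was a 22.3-fold change, or 10.9-fold when these identifiers were fitted alone. It moved widely with the fit and with which genes passed the filter. It was 38.0-fold with the 9 distal libraries, 72.5-fold with the replicate block and 218-fold with only the 6 libraries compared. With any 1 of the 6 left out it was 68.3- to 87.9-fold, where the filter passed more genes and a group had fewer libraries. It was 4.06-fold for genes with at least 10 counts in every library, 4.19-fold with DESeq2, 10.8-fold with limma voom and 8050-fold without a filter on low counts. The count of 0 called genes therefore does not show that changes of 2- to 4-fold were absent.

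The higher dose gives sizes against which to read these intervals. In the same fit, 8 of 21537 AMEX60DD genes (0.0371%, against 0.0239% of all identifiers tested) were called at 1 uM TAL against the same DMSO distal pools, 6 lower and 2 higher. The comparisons share those vehicle pools, so the values are set side by side. The 6 lower genes had log2 fold changes of -4.78 to -2.71 at 1 uM and of -0.36 to 0.17 at 0.1 uM. At 0.1 uM all 6 intervals held 0, and the lower ends ran from -1.23 to -0.41, so the value of the 1 uM comparison lay outside the 0.1 uM interval for each of the 6. All 8 genes were chosen by their call at 1 uM, and their values there are taken without intervals of their own. Setting them against the 0.1 uM intervals is therefore a description and not a test. In the direct test between doses, 4 of the 6 had an edgeR adjusted p of 0.0236 to 0.0486. For the remaining genes the adjusted p was 0.0577 and 0.0687. Because the choice favoured low values here, no conclusion is drawn from this test. Under each other setting tried that kept all 6 genes, libraries left out in turn included, the intervals at 0.1 uM held 0 and left out the value of the 1 uM comparison, and their lowest end was -1.64. Every setting used the same chosen genes, so these are not separate support.

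AMEX60DD021953 had the narrowest interval of the 8 at 0.1 uM and was chosen after its values were seen. It was at 63.8, 63.3 and 52.2 CPM in the DMSO distal pools, at 92.6, 59.9 and 49.3 CPM at 0.1 uM and at 11.0, 8.01 and 7.72 CPM at 1 uM TAL. The pools at 0.1 uM spanned the vehicle pools, and every pool at 1 uM was far below both. Its log2 fold change at 0.1 uM was 0.17 (SE 0.261, 95% interval -0.41 to 0.76), so a fall below 0.751 of the vehicle level lay outside the interval. Proximal vehicle pools were at 7.3, 10.7 and 11.8 CPM.

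The 2 genes higher at 1 uM did not follow one pattern at 0.1 uM. AMEX60DD009927, described above, was at a mean of 22.8 CPM at 0.1 uM and 52.4 CPM at 1 uM, and its interval at 0.1 uM left out both 0 and the log2 fold change of 4.07 seen at 1 uM. This gene was also among those picked for a small p at 0.1 uM, and the interval is not adjusted for that pick. AMEX60DD016524 was at a mean of 2.35 CPM with DMSO, 3.88 CPM at 0.1 uM and 35.2 CPM at 1 uM. Its interval at 0.1 uM, from -0.23 to 1.67 on the log2 scale, held 0 and left out the log2 fold change of 3.89 seen at 1 uM. The direct test between doses gave an edgeR adjusted p of 0.728 for the first of these genes and 0.0938 for the second.

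**Figure D5:**
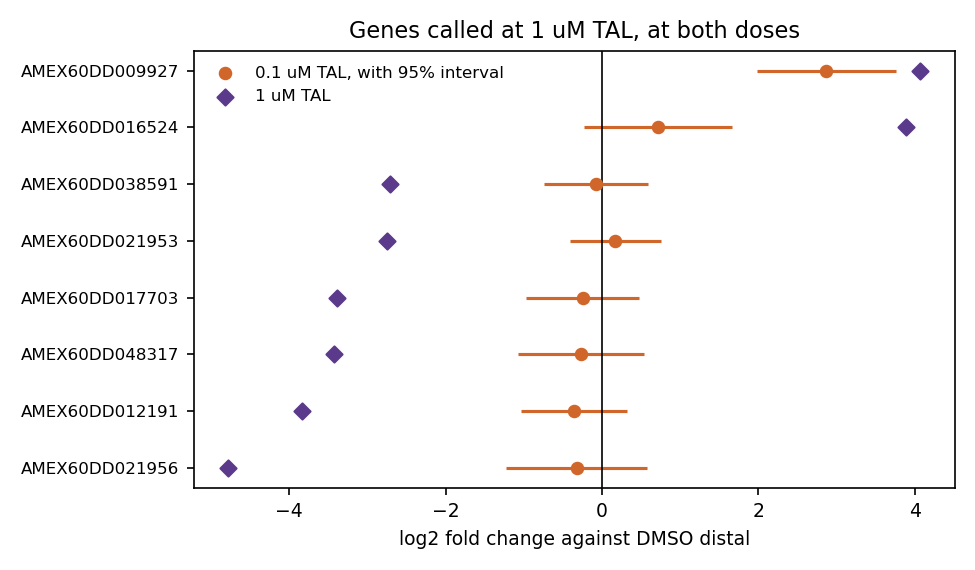
Log2 fold change against DMSO distal pools (horizontal axis) for the 8 AMEX60DD genes called at 1 uM TAL (rows), at 0.1 uM TAL (circles, lines are 95% intervals) and at 1 uM TAL (diamonds). The diamonds lie outside the 0.1 uM interval in all 8 rows, and 7 of the 8 intervals hold 0, the exception being AMEX60DD009927. The 8 genes were chosen by their call at 1 uM, and the diamonds are drawn without intervals. AMEX60DD009927 was also picked for its small p at 0.1 uM, for which its interval is not adjusted.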

How the data were processed

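RNA extraction from frozen pools and library construction for 150-bp reads were done by a sequencing company, per the labels' protocols. The table the authors deposited holds salmon's estimated counts by gene, per the table's name; the submitters' processing notes name Trimmomatic 0.38 and Salmon 0.13.1, and the index and annotation release are not given in the sources used here. The table has 15 columns of libraries, and 3 columns that match no sample described here were not used. In the 12 libraries 98.8 to 99.1% of the values above 0 were not whole (further than 0.001 from a whole number). The sources used here do not say whether they were scaled by transcript length, so they are estimates and not whole reads, and they were rounded before fitting.

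Groups and replicate numbers came from sample titles. One fit of all 12 libraries in 4 groups used edgeR 4.0.16 in R 4.3.3 (filterByExpr, TMM factors, glmQLFit, glmQLFTest), with Benjamini-Hochberg adjustment over all 41884 identifiers and a threshold of 0.05. All 12 were fitted together to give a steadier estimate of the spread. The 95% intervals use the fitted weights, the shrunk quasi-dispersion and the t quantile; simultaneous intervals use a Bonferroni quantile. Intervals cover the spread in the model only, and ratios to a count floor allow for no spread between pools. The alternatives used limma 3.58.1 and DESeq2 1.42.0. Fits and interval coverage were tested on simulated data. These had no offset of a whole library such as that of DMSO replicate 1. Changes were placed only in genes above a set level with less than the median spread. Genes with no finite interval counted as covered, so the simulation cannot show coverage in these cases.

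Named genes were, with at least 1 CPM in a group and no overlap between groups, the 2 of smallest p higher and the 2 lower at 0.1 uM, then the 2 with the narrowest intervals and the most abundant gene. They and the set of identifiers were chosen with earlier results of these data known. Lists of retinoic acid, patterning and cell type genes could not be applied because identifiers have no names. Deviations from group means correlated at -0.0963 to 0.0439 over the 3 same-numbered pairs of libraries. Over the 6 pairs of different number they correlated at -0.133 to 0.145. With 3 libraries a group this cannot decide whether replicate numbers pair the libraries, and the main fit used no pairing.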

Additional observations from a re-analysis of the deposited data

How the results depend on the processing

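The count of 0 called genes was also 0 with DESeq2 size factors, both other filters on low counts, the 6 or the 9 libraries, AMEX60DD identifiers alone, and each library left out in turn (0 to 0), with a lowest adjusted p of 0.0732 to 0.894. It was 5 with limma voom and 48 with DESeq2, each of 21537 AMEX60DD genes tested, though DESeq2 gave no adjusted p for 240 genes. The 5 were AMEX60DD009927 and 4 genes at 0 counts in 9 of 12 libraries, AMEX60DD017946 and AMEX60DD042386 (higher) and AMEX60DD043610 and AMEX60DD054010 (lower), named after their values were seen. Genes at an unadjusted p under 0.05 numbered 2921 with limma voom, 1169 with DESeq2, 1348 with AMEX60DD identifiers alone and 1271 with these and only the 6 libraries, a setting chosen after seeing the data, and 381 to 1587 with a library left out. The cause of these changes was not tested. Intervals within 4-fold numbered 12375 to 15431 in all fits, and 1690 with simultaneous intervals. The share of genes tested moved far more, and the filter also changed how many were tested. It was 68.8% as reported, 38.1% of 39309 genes without a low-count filter and 96.1% of 12874 genes with at least 10 counts in every library. With a library left out it was 58.4 to 60.3%. The number within 4-fold was then 13544 to 14128, against 14810 as reported, although the filter passed more genes. The median half-width, 0.939 as reported, was 2.64 without a low-count filter, 0.49 with at least 10 counts in every library, 0.888 with the 9 distal libraries, 0.745 with limma voom, 0.834 with DESeq2, 0.788 with AMEX60DD identifiers alone (0.704 with only the 6 libraries), 4.48 for simultaneous intervals and 1.15 to 1.23 with a library left out, where the filter passed more genes. Non-overlapping genes rose from 2088 to between 3160 and 6944 with a library left out. Groups of 2 libraries overlap less often by construction, but the count also varied with the library left out. How much of the rise came from each was not tested.

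With the replicate block 0 genes were called, 517 had an unadjusted p under 0.05 and the median half-width was 1.05. Same-numbered libraries showed no shared deviation, but so few libraries cannot decide whether a number marks a shared experiment. The labels give only the number.

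Log2 fold changes near 0 changed sign. AMEX60DD005083 (0.01) went to -0.0006 with DESeq2 size factors, -0.0079 without a filter and -0.0174 under the strictest filter, and lay between -0.0152 and 0.0591 with a library left out. AMEX60DD016881 (0.24) lay between -0.14 and 0.84, and AMEX60DD021953 (0.17) between -0.15 and 0.35, with a library left out. The other named genes kept their direction under every setting that gave them a value.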
